A study of Mus musculus with 6 samples.

Results

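The replication-dependent histone genes were examined in the mouse melanoma line B16.F10, either untreated or given 3.5 µM simvastatin for 24 h, a dose the labels call the drug's IC50. Simvastatin inhibits HMG-CoA reductase, the enzyme that makes mevalonate for cholesterol and isoprenoids. Members were the genes whose symbol in the authors' deposited table begins with Hist, a cluster number from 1 to 4 and the letter h. This rule took 63 genes and 98 transcripts, of 8513 genes and 15905 transcripts in the table. Each group held 3 samples of the wild-type line, described as biological replicates in the series text, with 1 batch date for all 6. The table gives 1 value per group and none per sample, so the values below carry no SD, and sequencing depth is unknown. No source used here names the unit of the values, and values of different genes are therefore not read as relative abundance. Sums, shares and the words most abundant below refer to the deposited values alone. The labelled cell type was borne out by its markers, since all 9 melanocytic markers were listed, among them Dct, Pmel and Tyrp1, and none of the 15 markers of fibroblasts, leukocytes, endothelium or epithelium was.

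Replication-dependent histone genes supply the core histones H2A, H2B, H3 and H4, around which DNA is wound, and the linker histone H1, which binds between nucleosomes. They lie in clusters, mostly lack introns, and are transcribed in S phase, when new DNA must be packed. Their messenger RNAs usually end without a poly(A) tail, at a stem-loop that is bound by the protein SLBP, and they are degraded quickly when DNA synthesis stops. The libraries were made from total RNA with a stranded kit, per the labels' protocols, so poly(A) selection is not part of the protocol given there. In RNA from a whole culture, fewer cells in S phase and less histone RNA per cell cannot be told apart.

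The stem-loop is shown first, because it is the feature that the messenger RNAs of all classes share and that the choice of members did not use. GENCODE mouse release 21 (GRCm38) held the 60 Ensembl transcripts of the members, and the histone stem-loop pattern (16 bases: the conserved letters, with any base at the variable positions, on the transcript's own strand) was present in 42 of them (70.0%), against 0.221% of all 141767 GENCODE transcripts. It occurred in 8 forms, given here 5′ to 3′ from the gene of highest mean value for each form, with the stem-loop in capitals and 5 bases on either side.
Hist2h2aa2: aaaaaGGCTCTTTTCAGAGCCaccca
Hist1h3e: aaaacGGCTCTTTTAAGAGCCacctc
Hist1h4h: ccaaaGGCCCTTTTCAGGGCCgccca
Hist1h4b: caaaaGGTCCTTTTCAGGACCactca
Hist2h4: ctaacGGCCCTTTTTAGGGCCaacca
Hist1h3g: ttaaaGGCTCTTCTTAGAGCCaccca
Hist1h4a: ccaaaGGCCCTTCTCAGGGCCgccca
Hist2h2ac: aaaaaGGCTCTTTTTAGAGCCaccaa
The form of Hist2h2aa2 was held by 24 genes, 10 of them H2A, 6 H2B, 5 H3 and 3 H1. The form of Hist1h3e was held by 6 genes of H1, H2B and H3. The forms of Hist1h4h (5 genes), Hist1h4b (2 genes), Hist2h4 (2 genes) and Hist1h4a (1 gene) were found in H4 genes, and all 10 H4 genes with a match had one of these. Annotated transcripts without a match may end before the stem-loop, so they do not show that the gene lacks one.

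Promoters are shown because nearly all members were lower together, but a link between promoter motifs and the lower values was not tested. For each class the gene of lowest authors' adjusted p among those called was taken. RefSeq (GRCm38.p6) gave a promoter window, 250 bases before to 50 after the start, for 54 of the 63 genes. The CCAAT box (CCAAT or, on the other strand, ATTGG) was in 47 of these windows (87.0%), against 37.9% of 27025 promoters of the same length. It was in every window of the H1, H2A, H2B and H3 genes matched (6, 16, 12 and 10), and in 3 of 10 H4 windows. The letters of the TATA box (TATAAA or TTTATA) were in 30 member windows (55.6%), against 14.2% of all. Any position in the window and either strand counted, so a match need not be a working TATA box. The octamer (ATTTGCAT or ATGCAAAT) was in 10 (18.5%), against 1.75% of all, and these were 6 H2A and 4 H2B genes. Some H2A and H2B neighbours on opposite strands lie 173 to 302 bases apart, so their windows can overlap. As both strands were searched, 1 site can then count for both genes. The 150 bases before the start are printed 5′ to 3′ on the strand of the gene, with matches in capitals. They lie at chr13:23763518-23763667 (Hist1h1a, plus strand), chr13:23574231-23574380 (Hist1h2ad, plus strand), chr13:21753926-21754075 (Hist1h2bn, plus strand), chr13:23575613-23575762 (Hist1h3d, plus strand) and chr13:22041363-22041512 (Hist1h4i, minus strand).
Hist1h1a: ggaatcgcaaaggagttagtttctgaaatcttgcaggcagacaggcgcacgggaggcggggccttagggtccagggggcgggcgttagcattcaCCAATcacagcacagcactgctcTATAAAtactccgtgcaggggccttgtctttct
Hist1h2ad: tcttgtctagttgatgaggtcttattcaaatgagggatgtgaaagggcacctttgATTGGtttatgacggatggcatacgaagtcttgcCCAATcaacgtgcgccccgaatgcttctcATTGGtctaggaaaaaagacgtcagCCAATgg
Hist1h2bn: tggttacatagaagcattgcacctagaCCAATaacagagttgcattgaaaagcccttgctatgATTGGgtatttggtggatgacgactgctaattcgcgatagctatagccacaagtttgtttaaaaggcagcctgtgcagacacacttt
Hist1h3d: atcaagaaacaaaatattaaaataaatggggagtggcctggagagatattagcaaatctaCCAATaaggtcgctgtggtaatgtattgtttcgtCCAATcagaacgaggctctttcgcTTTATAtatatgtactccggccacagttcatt
Hist1h4i: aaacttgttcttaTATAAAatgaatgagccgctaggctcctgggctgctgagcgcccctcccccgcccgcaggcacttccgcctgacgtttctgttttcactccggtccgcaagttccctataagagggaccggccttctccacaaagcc
The stretch before Hist1h2ad holds 4 CCAAT matches and that before Hist1h2bn holds 2, and each of these stretches also separates an H2A gene from an H2B gene on the other strand.

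The comparison of treated with untreated cells asks how the statin changes the transcriptome, and for histone genes the difference was large and went 1 way. The total of a gene, the sum of its transcripts' values, was lower with simvastatin for 60 of 63 histone genes, against 48.3% of all genes in the table. For 54 of 63 it was at least 2-fold lower (85.7%), against 4.72% of all genes. The median log2 ratio of simvastatin to control was -1.37, or 2.58-fold lower, with quartiles of -1.50 and -1.19, while the median over all genes was 0.02 with quartiles of -0.32 and 0.35. The values of all histone genes summed to 4230 with simvastatin and 10558 in control, which is 1.23% and 2.67% of the table's summed values. By the authors' adjusted p under 0.05, 14 genes fell (22.2%), against 1.81% of all genes, and none rose. These genes are Hist1h1a, Hist1h2ad, Hist1h2af, Hist1h2ai, Hist1h2ao, Hist2h2ab, Hist1h2bg, Hist1h2bj, Hist1h2bk, Hist1h2bn, Hist1h2bq, Hist1h3d, Hist1h4b and Hist1h4i.

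**Figure D1:**
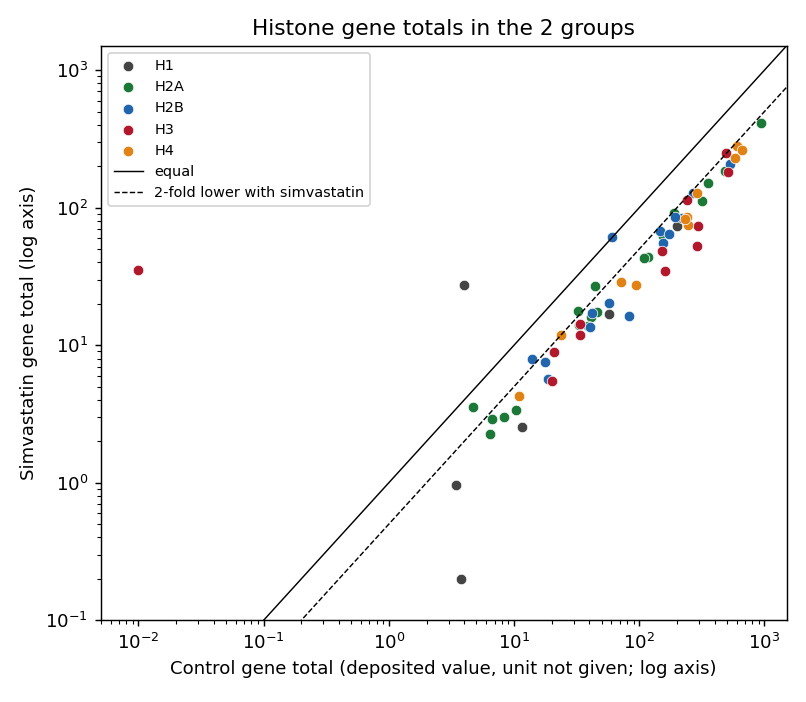
Gene totals of the 63 histone genes in control (horizontal, log axis) and with simvastatin (vertical, log axis), 1 point per gene, coloured by class, with lines for equal values and for 2-fold lower values. Most points lie below the dashed line, and the 3 above the solid line are Hist1h1e, Hist1h2bc and Hist2h3c1.

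Per transcript, 15 of the 98 fell at an adjusted p under 0.05 in the authors' deposited table (0.987% of all transcripts did), by 1.84-fold to 18.97-fold with a median of 2.61-fold. None rose at that threshold, which 1.11% of all transcripts did, and none did at an unadjusted p under 0.05, where 54 were lower (10.2% of all transcripts were). The adjusted p of the 15 ran from 0.035 to 0.048 in the authors' deposited table, and a further 23 lower transcripts lay from 0.05 to under 0.1. The share of all transcripts in that band was not computed, so the 23 cannot be set against it. The calls marked by the authors, with adjusted p-values up to 0.2 and folds of at least 1.5, took 51 of the histone transcripts as lower (4.37% of all transcripts) and none as higher. These belong to 43 genes (7.52% of all genes). A difference of 2-fold or more did not by itself bring a call: 81 transcripts were at least 2-fold lower (13.2% of all transcripts), 67 of them not called, and 16 of them had an adjusted p over 0.5 in the authors' deposited table.

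All 5 classes were lower, and no test between classes could be made. The median gene was 3.51-fold lower in H1, 2.83-fold in H3, and 2.53-fold to 2.55-fold in H2A, H2B and H4. The summed value of H2A genes was 1218 with simvastatin and 2948 in control (2.42-fold lower), and that of H2B genes was 844 and 2022 (2.39-fold lower). For H3 genes the sums were 830 and 2256 (2.72-fold lower), and for H4 genes 1216 and 3053 (2.51-fold lower). H1 genes had the smallest sums, 121 and 279 (2.30-fold lower), which include Hist1h1e at 27.6 and 4.02. The shares of the histone sum held by each class were close in both groups, for example 28.7% with simvastatin and 28.9% in control for H4, and 19.6% and 21.4% for H3. Calls covered 5 of 19 H2A genes, 5 of 15 H2B genes, 2 of 11 H4 genes, 1 of 12 H3 genes and 1 of 6 H1 genes. Of all genes 1.81% were called lower.

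**Figure D2:**
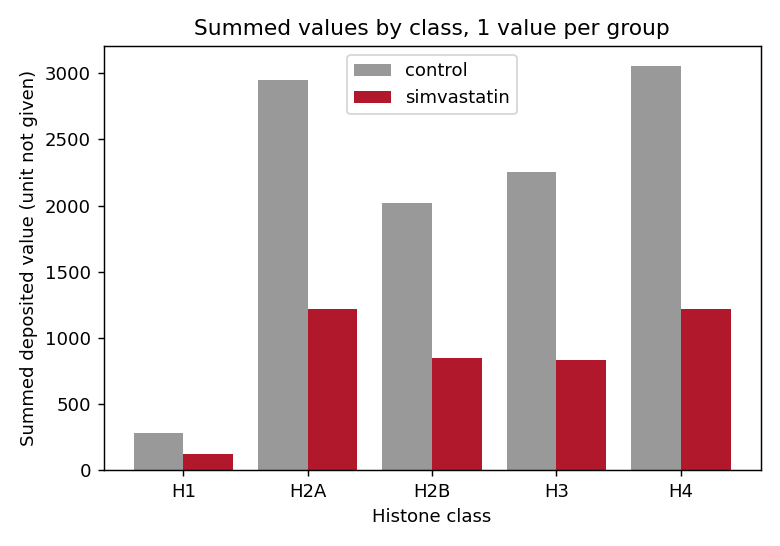
Summed deposited values (vertical axis, unit not given) of the genes of each histone class in control (grey) and with simvastatin (red), with no error bars because each group has 1 value per transcript. Every class is between 2.30-fold and 2.72-fold lower with simvastatin.

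H2A, which pairs with H2B in the nucleosome, was the class with the most genes. All 19 had a lower total with simvastatin (median log2 ratio -1.34, range -1.61 to -0.40). Hist2h2aa2 stood at 410 with simvastatin and 946 in control per the authors' deposited table (adjusted p = 0.093). Hist1h2ab stood at 185 and 486, and Hist2h2ac at 151 and 357, per the authors' deposited table (adjusted p = 0.052 and 0.111 respectively). None of these 3 genes passed, although each was over 2-fold lower.

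The 5 H2A genes that fell had control values from 32.6 to 191. Hist1h2ad (chromosome 13, 23574381 to 23574952 in GRCm38) fell 2.49-fold, from 154 to 61.8 per the authors' deposited table (adjusted p = 0.038). Hist1h2af fell 2.09-fold, from 191 to 91.3, per the authors' deposited table (adjusted p = 0.042). Hist1h2ao fell 2.68-fold, from 118 to 44.0, per the authors' deposited table (adjusted p = 0.043). Hist1h2ai and Hist2h2ab, at 45.8 and 32.6 in control, fell 2.61-fold and 1.84-fold per the authors' deposited table (adjusted p = 0.042 for both). At the ends of the class, Hist1h2ap stood at 3.40 and 10.4, the lowest ratio, and Hist1h2an at 3.54 and 4.68, the highest, per the authors' deposited table (adjusted p = 0.086 and 0.276 respectively).

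Among H2B genes, 14 of 15 had a lower total (median log2 ratio -1.35). Hist2h2bb stood at 209 with simvastatin and 532 in control, and Hist1h2bb at 83.7 and 221, per the authors' deposited table (adjusted p = 0.064 and 0.052 respectively). Hist1h2bg fell 2.10-fold, from 270 to 129, per the authors' deposited table (adjusted p = 0.046). Hist1h2bj fell 2.27-fold, from 193 to 85.1 (adjusted p = 0.042), and Hist1h2bn fell 2.32-fold, from 17.6 to 7.58 (adjusted p = 0.038), in the authors' deposited table. The main transcript of Hist1h2bk fell 2.67-fold, from 160 to 59.9, per the authors' deposited table (adjusted p = 0.045). For Hist1h2bq, 1 of 6 transcripts, an assembled one that is not its most abundant, fell 2.86-fold, from 12.5 to 4.36, per the authors' deposited table (adjusted p = 0.042).

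The exception among H2B genes was Hist1h2bc, whose total was 61.7 with simvastatin and 60.1 in control. Its 2 transcripts went opposite ways: the Ensembl transcript stood at 51.7 and 16.9, and an assembled one at 10.0 and 43.3, per the authors' deposited table (adjusted p = 0.58 and 0.05 respectively). The annotated Hist1h2bc transcript, 1156 bases long, is among those with no match to the stem-loop pattern. The lowest ratio of the class belonged to Hist3h2bb-ps, annotated as a pseudogene, at 16.3 and 82.5 per the authors' deposited table (adjusted p = 0.064).

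**Figure D3:**
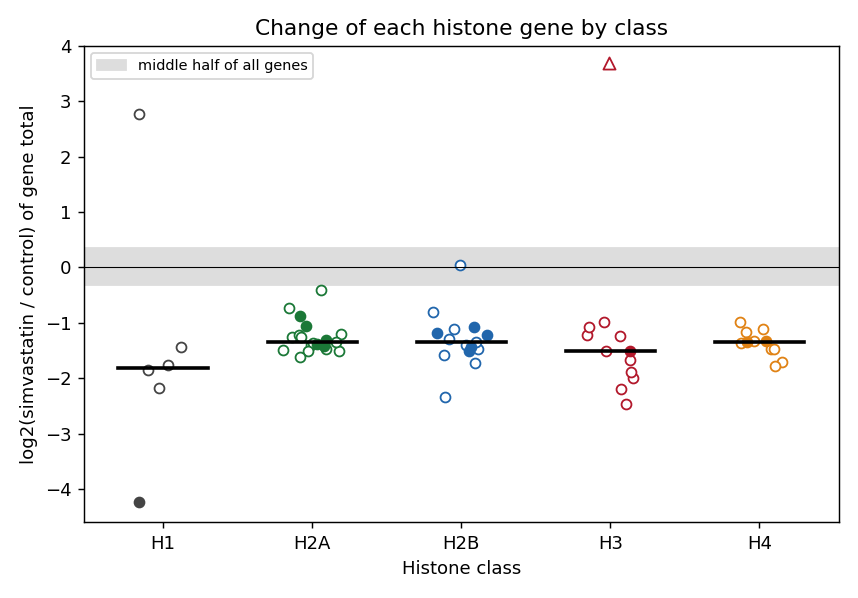
The log2 ratio of simvastatin to control gene totals (vertical axis) for each histone gene, by class, with filled points for the 14 genes that fell at an authors' adjusted p under 0.05, black lines for class medians and a grey band between the quartiles of all genes. The open triangle stands for Hist2h3c1, whose ratio is off the axis, and 60 of the 63 genes lie below 0.

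H3, which carries many of the regulatory marks of chromatin, had the highest fold between its summed values (2.72) and 1 called gene. Of its 12 genes, 11 had a lower total (median log2 ratio -1.50). Hist1h3e stood at 182 with simvastatin and 515 in control as a total of 2 transcripts, the lower adjusted p of which was 0.059 in the authors' deposited table. Hist2h3b stood at 250 and 494, and Hist1h3g at 73.0 and 293, per the authors' deposited table (adjusted p = 0.559 and 0.108 respectively). Hist1h3f had the lowest ratio, with a total of 53.0 against 292 (5.50-fold lower), and its transcripts had adjusted p-values of 0.549 and 0.693 per the authors' deposited table. Hist1h3d was the gene that fell, through an assembled transcript that went from 30.4 to 9.04, or 3.36-fold, per the authors' deposited table (adjusted p = 0.035). The Ensembl transcript of Hist1h3d stood at 2.80 and 3.12 per the authors' deposited table (adjusted p = 0.752).

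Hist2h3c1 stood at 35.2 with simvastatin and 0.01 in control per the authors' deposited table (adjusted p = 0.749), and no fold is given against so low a value. It belongs with Hist2h3b and Hist2h3c2 to the H3 genes of cluster 2 on chromosome 3. Every 50-base stretch of its annotated transcript also occurs in another GENCODE gene, Gm20634, which overlaps it on the same strand. The values of these 3 H3 genes together were 399 with simvastatin and 735 in control, or 1.84-fold lower. Without cluster 2, the 9 H3 genes of cluster 1 were all lower, with sums of 431 and 1521 (3.53-fold lower).

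H4, which pairs with H3, had a lower total in all 11 genes, and its ratios covered the narrowest range of the classes (-1.79 to -0.99, median -1.35). Hist1h4b (chromosome 13, 23757013 to 23757409) fell 2.55-fold, from 586 to 230, per the authors' deposited table (adjusted p = 0.048). Hist1h4h stood at 262 with simvastatin and 656 in control, and Hist1h4f at 279 and 607, per the authors' deposited table (adjusted p = 0.121 and 0.053 respectively). Hist1h4i fell through 2 of its 5 transcripts, from 23.3 to 7.50 and from 9.89 to 3.26, per the authors' deposited table (adjusted p = 0.041 and 0.043 respectively), but not through its most abundant, at 16.2 and 28.7 (adjusted p = 0.231). Hist4h4, the 1 gene of cluster 4 on chromosome 6, had the lowest ratio at 27.2 and 93.7, and Hist1h4k the highest at 12.0 and 23.8, per the authors' deposited table (adjusted p = 0.059 and 0.484 respectively).

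The 6 linker histone genes had a median log2 ratio of -1.81 and ranged from -4.24 to 2.78. Hist1h1c stood at 73.3 with simvastatin and 199 in control per the authors' deposited table (adjusted p = 0.33). Hist1h1d totalled 16.9 and 57.5 over 5 transcripts, all lower, with a lowest adjusted p of 0.119 in the authors' deposited table. Hist1h1a fell from 3.77 to 0.20 per the authors' deposited table (adjusted p = 0.043), and its 18.97-fold rests on these low values. Hist1h1t, a variant known from male germ cells, stood at 2.56 and 11.5, and Hist1h1b at 0.96 and 3.47, per the authors' deposited table (adjusted p = 0.054 and 0.19 respectively). Hist1h1e went the other way, at 27.6 with simvastatin and 4.02 in control per the authors' deposited table (adjusted p = 0.443). Hist1h1e overlaps Hist1h2be on the same strand of the annotation, and 23.8% of its 50-base stretches also occur in the latter.

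Clusters 1 and 2 held 50 and 10 of the genes, with sums 2.58-fold and 2.28-fold lower, and cluster 3 held Hist3h2a (42.9 and 109) and Hist3h2bb-ps. Split at gaps of over 100 kb, cluster 1 on chromosome 13 formed a block of 15 genes (21716422 to 21837530), one of 5 genes (22035164 to 22043676) and one of 29 genes (23531050 to 23764406), while the pseudogene Hist1h2al lay apart. The block of 29 genes held 86.6% of the cluster's control value. Its summed value was 2.58-fold lower, against 2.63-fold and 2.49-fold for the other 2 blocks, and their median log2 ratios were -1.39, -1.42 and -1.37. Calls covered 6 of 29, 4 of 15 and 3 of 5 genes in these blocks, against 1.81% of all genes.

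H2A and H2B genes often face each other across a short promoter, and 11 such pairs on opposite strands, 173 to 302 bases apart, were found among the members. In 10 of the 11 pairs both genes had a lower total, and the median log2 ratio was -1.34 for the H2A and -1.29 for the H2B genes. The members of a pair differed by a median of 0.34 on the log2 scale. Hist1h2ah and Hist1h2bk were close, with log2 ratios of -1.51 and -1.43, as were Hist1h2ao and Hist1h2bq with -1.42 and -1.50. Hist1h2ad and Hist1h2bf, which share the promoter stretch printed above for Hist1h2ad, had ratios of -1.32 and -0.80. The widest gap was that of Hist1h2ac (-1.25) and Hist1h2bc (0.04).

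**Figure D4:**
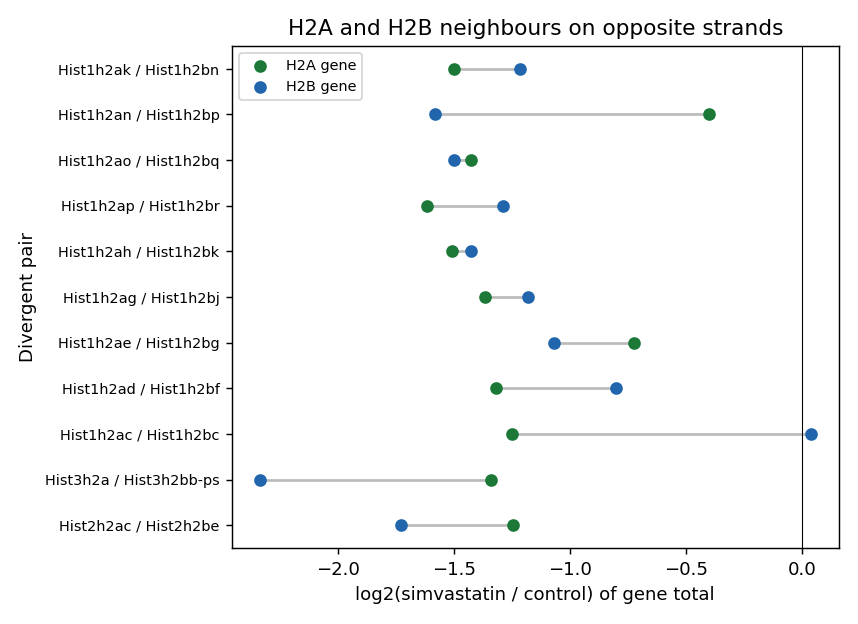
The log2 ratio of simvastatin to control gene totals (horizontal axis) for the H2A gene (green) and the H2B gene (blue) of each of 11 divergent pairs (vertical axis), joined by a grey line. All points lie below 0 except that of Hist1h2bc.

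Transcripts were also grouped by where their annotation ends. In 19 Ensembl transcripts the stem-loop lay within 60 bases of the end (3 to 57 bases, median 33), a cutoff set here. Their median log2 ratio was -1.35. In 23 the annotation ran 74 to 4884 bases past the stem-loop, with a median ratio of -1.30, and in the 18 with no match it was -1.23. Some of the 18 are short annotations, such as Hist1h2bn (381 bases) and Hist1h4k (312 bases), which may end before any stem-loop. No match therefore does not show that a gene lacks one. All 19 of the first set were lower, as were 20 of the 23 and 17 of the 18. Calls numbered 5, 2 and 5 (0.987% of all transcripts were called lower).

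Near-identical copies limit how firmly reads can be given to 1 gene. Of the 60 genes with an Ensembl transcript in the table, 31 had over 50% of their 50-base stretches in common with another GENCODE gene, with class medians of 79.3% for H2A, 62.0% for H3, 56.5% for H2B, 28.9% for H4 and 2.25% for H1. The 31 genes had a median log2 ratio of -1.35 and 9 calls, and the other 29 had -1.40 and 5 calls (1.81% of all genes). How the authors' counting treated reads that fit several copies was not stated. In the annotation 25 of the 63 genes overlap another gene, 7 of them on the same strand (Hist1h2be, Hist1h1e, Hist1h2ac, Hist2h2aa1, Hist2h3c1, Hist3h2a and Hist2h2bb). For some members the gene that shared most had no Hist symbol. Gm20634 held all 50-base stretches of Hist2h2aa2 and Hist2h3c1, 89.4% of those of Hist2h2aa1 and 79.7% of those of Hist2h3b. Gm42743 held 53.6% of those of Hist2h2bb. These are overlapping annotations: Gm20634 overlaps Hist2h2aa1 and Hist2h3c1 on the same strand, and Gm42743 overlaps Hist2h2bb. Values of single copies are therefore uncertain, and class sums can also depend on reads given to such other genes.

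Genes that surround histone supply had medians of gene totals nearer to 0, a difference that was not tested. These medians were not recomputed on the most abundant transcripts. Over 4 lists of such genes, 49 of 58 were in the table and 42 had a lower total, with 4 that fell (1.81% of all genes) and 1 with a transcript that rose (2.03%). The replication-independent histones, most of which are made throughout the cell cycle and carry poly(A) tails, had a median log2 ratio of -0.48. All 9 genes were lower in total, and none was called (1.81% of all genes were called lower). By the authors' own call 3 of the 9 were lower (7.52% of all genes). H2afx, the variant that is phosphorylated at DNA breaks and whose messenger RNA also has a form that ends at a stem-loop, stood at 117 with simvastatin and 340 in control per the authors' deposited table (adjusted p = 0.072). H2afz, the promoter-associated variant, had totals of 235 and 327, with its main transcript at 150 and 314 per the authors' deposited table (adjusted p = 0.062). The total of H2afz includes a transcript at 81.0 with simvastatin and 3.58 in control (adjusted p = 0.596) in the authors' deposited table. H3f3a and H3f3b, the genes of replacement histone H3.3, had totals of 115 and 118, and of 127 and 190. The total of H3f3a includes an assembled transcript at 27.8 with simvastatin and 0.01 in control (adjusted p = 0.748) in the authors' deposited table. The main transcript of H3f3a stood at 53.1 and 101, and that of H3f3b at 59.6 and 122, per the authors' deposited table (adjusted p = 0.3 and 0.735 respectively).

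Among 13 genes of histone messenger RNA transcription and 3′ end processing the median log2 ratio was -0.22, and 9 had a lower total. None was called, at 0.05 or by the authors' own call (1.81% and 7.52% of all genes were called lower). Slbp, the stem-loop binding protein, totalled 9.81 with simvastatin and 16.4 in control, with a lowest adjusted p of 0.395 in the authors' deposited table. Casp8ap2, a component of the histone locus body, stood at 6.02 and 8.09, and Lsm10, of the U7 particle that directs the cut, totalled 10.5 and 7.89, with lowest adjusted p-values of 0.483 and 0.646 per the authors' deposited table. Npat and Lsm11 were not analysed here.

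Of 18 histone chaperone genes 16 had a lower total (median log2 ratio -0.49). At 0.05, 2 of the 18 were called lower (1.81% of all genes) and 1 had a transcript that rose (2.03%). By the authors' own call 7 were lower (7.52% of all genes). That call also took 1 as higher, for which no share of all genes was computed. Chaf1a, the large subunit of the assembly factor that deposits H3 and H4 at replication forks, fell 1.69-fold, from 31.2 to 18.5, per the authors' deposited table (adjusted p = 0.045). Mcm2, a helicase subunit that also binds H3 and H4, fell 1.83-fold, from 122 to 66.5, per the authors' deposited table (adjusted p = 0.042). Nasp, which holds a reserve of H3 and H4, totalled 13.4 and 26.5, and Asf1b, which hands them on, stood at 10.8 and 15.5, with lowest adjusted p-values of 0.083 and 0.109 per the authors' deposited table. Npm1 totalled 207 and 253, while 1 of its transcripts, listed at 0 in control and at 47.2 with simvastatin, rose per the authors' deposited table (adjusted p = 0.022).

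The 9 S phase entry genes had a median log2 ratio of -0.90, with 8 lower in total and summed values of 468 with simvastatin and 675 in control. At 0.05, 2 of the 9 were called lower (1.81% of all genes). By the authors' own call 7 of the 9 were lower (7.52% of all genes). Rrm2, a ribonucleotide reductase subunit, fell 2.01-fold on its main transcript, from 199 to 98.9, per the authors' deposited table (adjusted p = 0.043). E2f1, a transcription factor that opens S phase, fell 1.23-fold on its main transcript, from 12.8 to 10.5, per the authors' deposited table (adjusted p = 0.042). The other 7 genes of the list did not pass at 0.05. Among them Cdk2, a kinase that drives S phase, was the only gene of the list with a higher total. It totalled 164 with simvastatin and 126 in control, with a lowest adjusted p of 0.339 in the authors' deposited table. The part of S phase in the lower histone values was not tested.

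**Figure D5:**
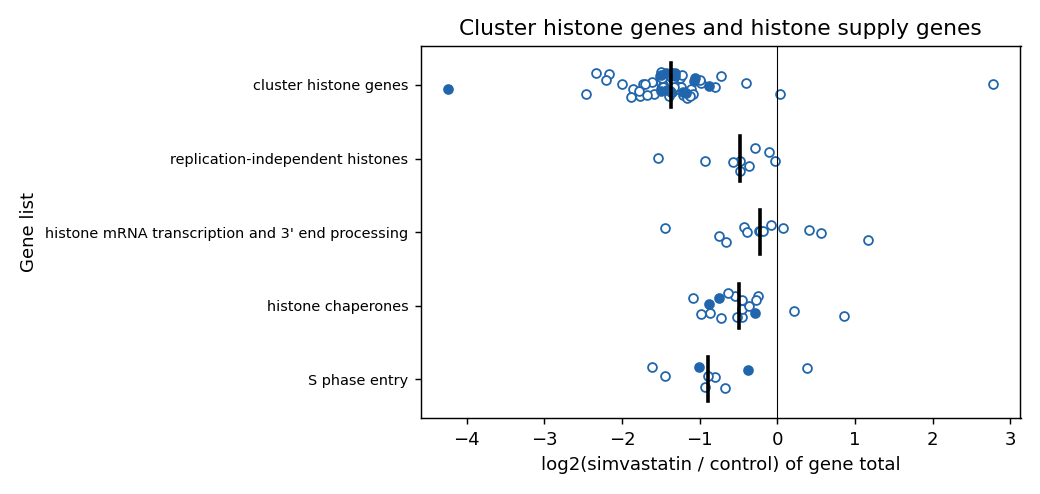
The log2 ratio of simvastatin to control gene totals (horizontal axis) for the cluster histone genes and 4 lists of histone supply genes (vertical axis), 1 point per gene, filled where a transcript passed an authors' adjusted p under 0.05, with black lines for medians. Hist2h3c1 is off the axis and not drawn, and the medians run from -1.37 for cluster histone genes to -0.22 for messenger RNA processing genes.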

How the data were processed

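RNA sequencing compared 3 untreated with 3 simvastatin samples, grouped by their titles. The submitters' processing notes name HISAT2 2.0.5, StringTie and the build GRCm38 (mm10). No source used here says how reads were counted, filtered or tested. The authors deposited 1 expression signal per group and transcript (unit not named), with a signed fold score and p-values before and after adjustment (per the file headers), so no test was refitted. The authors' enrichment terms were made with DAVID, per the file headers, as counts and ratios.

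Gene totals are sums over transcripts, computed here with pandas 2.3.3 (Python 3.11.15), and ratios carry no pseudocount. The code was tested on simulated data with class shifts set without noise in the members, which checks its arithmetic only. Calls are the authors' adjusted p under 0.05, as printed. Sequence features came from GENCODE mouse release 21 and RefSeq tables. The table held 63 of 70 GENCODE genes with such symbols, and the other 7 were not analysed here. All 63 had a mean total of at least 1. The members, lists and thresholds were chosen with earlier results of these data known. Named were, in each class, the 3 genes of highest mean total and the lowest and highest ratio, every called gene, every gene with a higher total, and 12 fixed supply genes with every called one. Other genes named were added after their values were seen.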

Additional observations from a re-analysis of the deposited data

How the results depend on the processing

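The summed values of the table were lower with simvastatin, and scaling both groups to the same sum moves every log2 ratio up by 0.20 and the median of all genes from 0.02 to 0.22. This is the same shift for every gene, so it cannot alter differences between genes. A minimum mean total of 1 removed no histone gene and so tests nothing here. Over the most abundant transcript, Ensembl transcripts only, a pseudocount of 1 and this scaling, the histone median lay between -1.37 and -1.17, and 60 of 63 genes had a lower total, or 56 of 60 with Ensembl transcripts only. Every class median and class sum kept its direction. As no replicate spread exists, a shift under 1.5-fold was taken as no change, and no class passed it. The class medians of H1 ranged most, from -2.08 to -1.57. The count of called genes depended on the threshold. It was 14 at an adjusted p under 0.05 (1.81% of all genes), 33 under 0.1 and 0 under 0.01. By the authors' own call it was 43 (7.52% of all genes). The share of all genes under 0.1 or 0.01 was not computed. At an unadjusted p under 0.05, 54 histone transcripts were lower (10.2% of all transcripts). At 0.05 the count of genes was 12 with the most abundant transcript (without Hist1h2bq and Hist1h4i) and 12 with Ensembl transcripts only. Histone supply genes called lower numbered 4 at 0.05 and 17 by the authors' own call (1.81% and 7.52% of all genes). With no values per sample, no replicate could be left out. No paired analysis was possible because the table gives 1 value per group.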

Other observations

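Histone genes made up most listed genes of 13 of the 68 enrichment terms that the authors had computed for genes called lower. They did so in 0 of the 80 terms for genes called higher. The terms named below are all for genes called lower. Some terms list fewer gene identifiers than their stated count, so those named are ones whose lists are complete. In the term nucleosome 41 of 51 genes were histone cluster genes, and in that of CENP-A containing nucleosome 19 of 20, in the authors' deposited table. The KEGG pathways systemic lupus erythematosus (37 of 41 genes), alcoholism (37 of 42) and neutrophil extracellular trap formation (37 of 45) were carried by the same kind of gene in the authors' deposited table, where their adjusted p-values were 2.82E-16, 4.72E-16 and 1.40E-15. Necroptosis (14 of 20) and viral carcinogenesis (20 of 27) also held more histone cluster genes than others. These names describe pathways in which histone proteins are listed, and the data here are RNA values of the histone genes.

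Across the 63 histone genes, which share libraries and in part sequence, the mean total and the log2 ratio were only weakly related (Spearman's rho 0.09 as a description), although mean totals ran from 1.99 to 678.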
